A study of Mus musculus with 14 samples.

Results

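The variable (V) segments of the T cell receptor alpha and beta loci, TRAV and TRBV, were followed through 14 RNA libraries of regulatory T cells (Tregs), the Foxp3-expressing CD4 T cells that restrain immune responses. A row of the expression files was taken where its gene name began with Trav or Trbv followed by a digit. This gave 46 of 22255 genes, 27 of them TRAV segments on mouse chromosome 14 and 19 of them TRBV segments on chromosome 6. The GENCODE M21 annotation lists 163 such segments on GRCm38, 128 TRAV and 35 TRBV, and those outside the 46 were not analysed here. All shares below are therefore shares of the segments measured.

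Of the 14 libraries, 3 came from Tregs of Yumm1.7 melanomas in mice labelled CD36floxed FoxP3-YFPCre+/- and CD36 KO (KO tumor 1 to 3), and 3 from Tregs of the same melanoma in FoxP3-YFPCre+/+ mice (WT tumor 2 to 4). Lymph node (LN 1 to 4) and spleen (spleen 1 to 4) of FoxP3-YFPCre+/+ mice gave 4 libraries each. All mice were 8 weeks old, all cells are labelled positive for the Foxp3-YFP reporter, and Cre is driven by Foxp3 in every group, so the deletion is aimed at Foxp3-expressing cells. KO and WT tumors differ in the Cre genotype as well as in the floxed allele, and these cannot be told apart. Cd36, the targeted gene, was listed at 0, 1.06 and 0 FPKM in KO tumors and at 0 in each WT tumor, so its level gave no check of the tumor labels. Foxp3 was above 0 in every library, at 25.7 to 42.4 FPKM in KO tumors, 3.54 to 12.0 in WT tumors, 15.4 to 32.3 in LN and 8.67 to 27.8 in spleen. Nothing in the labels says that replicates came from different animals. The p-values cover only the variation among these libraries, which may be technical. Depth, estimated from the steps between low values, was 13.4 to 17.0 M reads in KO tumors (M, mega), 10.6 to 14.5 M in WT tumors, 18.2 to 21.3 M in LN and 11.4 to 13.8 M in spleen.

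A developing T cell joins a V segment to a joining segment (and, in the beta chain, a diversity segment) by cutting and rejoining its DNA, and the joined exon is spliced to a constant region. Allelic exclusion leaves most mature T cells with a single functional beta chain, whereas the alpha locus can rearrange on both chromosomes and in several rounds. The V segment encodes the receptor loops that mainly contact the MHC molecule, and its last bases open the hypervariable loop that mainly contacts the peptide. The mix of V segments in the RNA of a T cell pool thus reflects which clones it holds and how much receptor RNA each contributes. In bulk RNA, fewer cells with a segment and less RNA per cell cannot be told apart.

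The TRBV segments below are those whose level passed the test in a comparison with LN (Trbv13-3, Trbv17, Trbv29 and Trbv31) and some of the leaders of libraries outside LN (Trbv15, Trbv16 and Trbv19). Trbv3 and Trbv13-2, which also led libraries outside LN, are not shown. Each line gives the last 60 coding bases of the germline segment in GENCODE M21 (GRCm38), 5′ to 3′. Capitals mark the bases from the last in-frame cysteine codon to the segment's end, the germline part of the hypervariable loop.
Trbv13-3: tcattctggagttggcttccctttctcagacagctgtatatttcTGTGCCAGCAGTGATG
Trbv15: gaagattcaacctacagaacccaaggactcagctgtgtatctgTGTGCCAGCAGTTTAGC
Trbv16: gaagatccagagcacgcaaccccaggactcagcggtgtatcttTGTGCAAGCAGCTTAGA
Trbv17: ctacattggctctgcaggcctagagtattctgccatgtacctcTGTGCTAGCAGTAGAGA
Trbv19: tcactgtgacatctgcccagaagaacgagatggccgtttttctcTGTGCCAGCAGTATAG
Trbv29: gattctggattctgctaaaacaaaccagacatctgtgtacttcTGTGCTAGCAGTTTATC
Trbv31: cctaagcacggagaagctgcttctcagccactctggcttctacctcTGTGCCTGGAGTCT
These stretches lie on the plus strand at chr6:41130526-41130585, chr6:41141599-41141658, chr6:41152171-41152230, chr6:41163497-41163556, chr6:41178989-41179048 and chr6:41271822-41271881, in the order of the lines, and for Trbv31 on the minus strand at chr6:41557693-41557752. Trbv31 lies downstream of the beta constant genes in the opposite orientation and joins by inversion. RefSeq calls Trbv29 a V segment pseudogene, whereas GENCODE M21 classes it, like the other 45, as a V gene. No TRBV segment measured had another annotated one with 95% or more identity of coding sequence. The highest TRBV identity was 90.6%, between Trbv13-2 and Trbv13-3.

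LN Tregs used the measured TRBV segments more evenly than every library of the other groups. The effective number of segments, the exponential of the Shannon entropy of the shares, is the number of equally used segments that would give the same entropy. For TRBV it was 5.63, 7.20 and 6.22 in KO tumors 1 to 3, 4.98, 3.83 and 6.95 in WT tumors 2 to 4, 13.2, 12.2, 11.01 and 11.9 in LN 1 to 4, and 3.22, 4.27, 9.12 and 5.15 in spleen 1 to 4. The lowest LN library stood above the highest other library, spleen 3, and the KO tumor, WT tumor and spleen ranges overlapped one another. Group means were 6.35 ± 0.793 in KO tumors (SD, n = 3), 5.26 ± 1.58 in WT tumors (n = 3), 12.1 ± 0.912 in LN (n = 4) and 5.44 ± 2.58 in spleen (n = 4). Pielou evenness, the entropy over the maximum for the segments above 0, was 0.655 to 0.769 in KO tumors, 0.561 to 0.735 in WT tumors, 0.847 to 0.931 in LN and 0.471 to 0.838 in spleen. On the inverse Simpson index, which weights the commonest segments more, the ranges were 3.84 to 5.82, 2.96 to 5.98, 8.83 to 11.4 and 2.14 to 7.88 in the same order of groups. On all 3 measures LN did not overlap any other group.

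**Figure D1:**
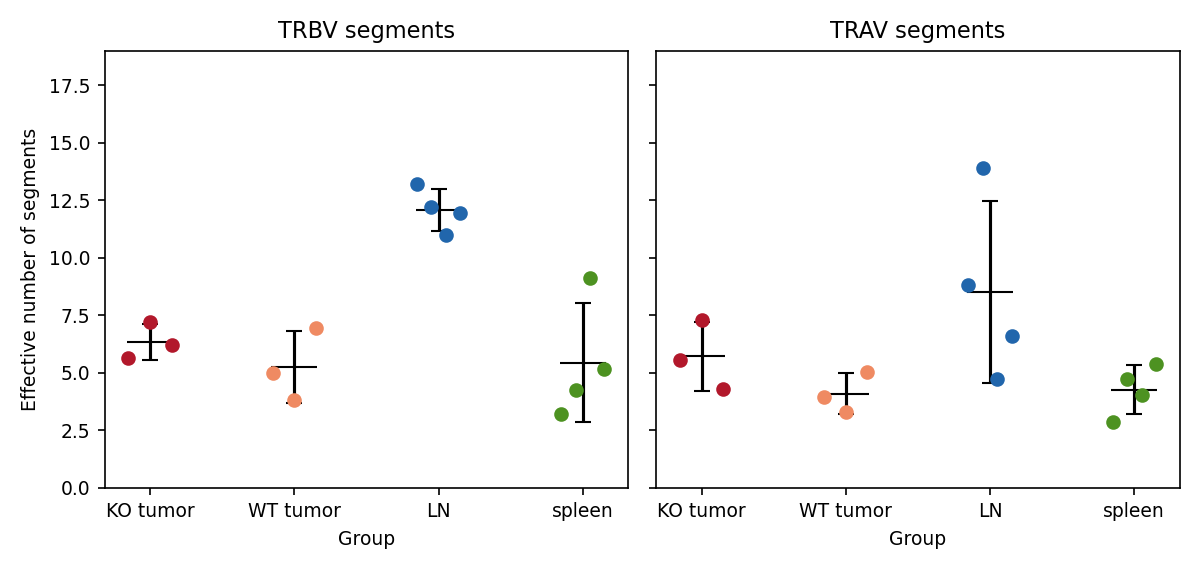
Effective number of V segments (vertical axis, no unit) by group for TRBV (left) and TRAV (right). Each point is a library, the horizontal mark is the group mean and the bar is 1 SD. The 4 LN libraries lie between 11.01 and 13.2 for TRBV, above all other libraries, while the groups overlap for TRAV.

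The number of TRBV segments detected ran the same way. In KO tumors 11, 12 and 8 of the 19 TRBV segments reached 1 FPKM, in WT tumors 8, 7 and 11, in LN 16, 16, 17 and 14, and in spleen 8, 6, 11 and 8. Segments holding at least 1% of the TRBV signal, a threshold that does not scale with depth, numbered 8 to 10 in KO tumors, 6 to 8 in WT tumors, 14 to 15 in LN and 6 to 11 in spleen. The TRBV segments together drew an estimated 1449 to 2888 reads in KO tumors, 909 to 3401 in WT tumors, 5991 to 7733 in LN and 1319 to 2663 in spleen, so LN also had the most reads. LN libraries also had few gaps in other genes: of 3686 protein-coding genes with a median of 5 to 50 FPKM over the libraries, 1.33 to 2.66% were under 0.5 FPKM in KO tumors, 3.77 to 4.42% in WT tumors, 1.09 to 1.33% in LN and 1.63 to 3.85% in spleen. These read numbers rest on the smallest depth at which low values were whole reads. A whole multiple of it would give whole reads too, in which case read numbers would be higher and 3-read levels lower. The number of cells sorted per library is not given in the sources used here. The part of depth, of such gaps and of cell number in the evenness of LN was not tested. The summed TRBV level, as a percent of the summed Trbc1 and Trbc2 level, was 8.28 to 18.3 in KO tumors, 5.46 to 19.1 in WT tumors, 15.6 to 20.3 in LN and 6.44 to 13.7 in spleen, so that LN stood above spleen but overlapped both tumor groups.

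Outside LN, a few segments carried most of the TRBV signal, and they differed from library to library. Trbv16 led in KO tumor 1 with 42.4% and in KO tumor 3 with 35.1% of the TRBV signal, and Trbv13-2 led in KO tumor 2 with 26.7%. WT tumors each had another leader, with Trbv19 at 44.3% in WT tumor 2, Trbv15 at 43.7% in WT tumor 3 and Trbv3 at 25.5% in WT tumor 4. No LN leader reached 20% of the signal: Trbv20 held 16.7% in LN 1, Trbv16 14.8% in LN 2, Trbv13-2 19.4% in LN 3 and Trbv31 18.8% in LN 4. Trbv15 led in spleen 1 with 66.1% and in spleen 2 with 38.7%, Trbv3 in spleen 3 with 20.4% and Trbv19 in spleen 4 with 32.8%. The 3 leading segments together held 65.1 to 75.4% of the TRBV signal in KO tumors, 63.0 to 87.0% in WT tumors, 36.7 to 48.6% in LN and 50.6 to 89.0% in spleen.

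**Figure D2:**
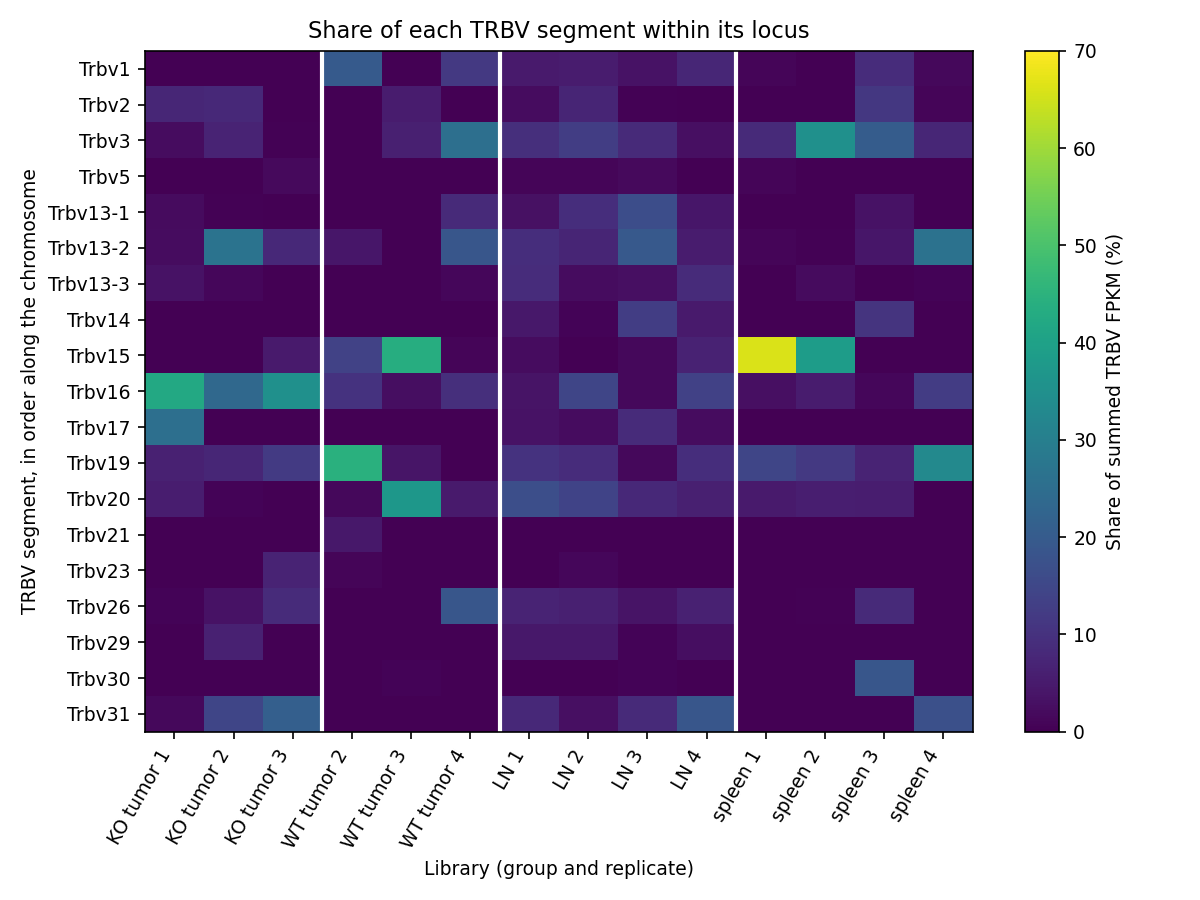
Share of each of 19 TRBV segments (rows, in order along the chromosome) in the summed TRBV FPKM of each library (columns), in percent by colour. Most LN columns are of low to middle colour over many rows, while 1 to 3 bright cells stand out in most other columns, the brightest being Trbv15 in spleen 1 at 66.1%.

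Trbv15 shows how far replicates of a group could differ. Its level was 0, 0.199 and 10.7 FPKM in KO tumors, 25.4, 146 and 5.81 FPKM in WT tumors, 17.5, 0.400, 12.7 and 65.3 FPKM in LN, and 248, 98.0, 0.392 and 0.235 FPKM in spleen. Within spleen it was thus the leading segment in 2 libraries and close to 0 in the other two. Trbv19 was 17.3, 39.7 and 24.9 FPKM in KO tumors, 81.0, 13.3 and 0 FPKM in WT tumors, 74.1, 81.7, 14.5 and 89.3 FPKM in LN and 54.9, 29.7, 32.1 and 84.9 FPKM in spleen. It was the leader in WT tumor 2 and listed at 0 in WT tumor 4, and all groups overlapped. Trbv20 held 5.73, 0.756 and 0% of the TRBV signal in KO tumors, 1.52, 37.2 and 5.01% in WT tumors, 16.7, 14.1, 7.95 and 6.20% in LN and 5.05, 5.95, 5.65 and 0% in spleen. All LN shares of Trbv20 lay above all spleen shares, and WT tumor 3 lay above both. Trbv3 held 2.40, 6.95 and 0.308% in KO tumors, 0.224, 6.17 and 25.5% in WT tumors, 9.57, 12.7, 8.45 and 3.0% in LN and 8.33, 35.2, 20.4 and 7.62% in spleen, with every pair of groups overlapping except KO tumor and spleen. Trbv13-2 held 2.37, 26.7 and 8.17% in KO tumors, 4.20, 0.0655 and 18.8% in WT tumors, 9.24, 7.25, 19.4 and 5.40% in LN and 0.889, 0.284, 4.19 and 26.5% in spleen, and all groups overlapped.

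Spread between replicates was wider in TRBV segments than in genes of like level, and narrowest in LN, which is a description with no test. Among genes with a group mean of 5 to 200 FPKM, the median SD of log2(FPKM + 1) over replicates was 2.14 for TRBV segments and 0.655 for all genes in KO tumors, 3.24 and 0.898 in WT tumors, 1.11 and 0.612 in LN, and 2.43 and 0.886 in spleen. The coefficient of variation of a segment's share, taken over the segments above 0 in the group, had a median of 109% in KO tumors, 159% in WT tumors, 72.0% in LN and 157% in spleen. At least 1 FPKM in every library of the group was reached by 5 of the 19 segments in KO tumors (Trbv13-2, Trbv16, Trbv19, Trbv26 and Trbv31), 3 in WT tumors (Trbv15, Trbv16 and Trbv20), 13 in LN and 3 in spleen (Trbv3, Trbv16 and Trbv19). Trbv16 alone reached 1 FPKM in all 14 libraries. At the other end, Trbv21 was above 0 only in WT tumor 2 (8.35 FPKM) and WT tumor 3 (0.257 FPKM), and Trbv30 only in WT tumor 3 (2.69 FPKM), LN 3 (5.88 FPKM) and spleen 3 (87.3 FPKM).

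Libraries were also set against each other by the share not in common, which is 0% for equal shares and 100% where no segment is shared. For TRBV, pairs within a group differed by 41.7 to 53.3% in KO tumors, 72.2 to 85.2% in WT tumors, 26.6 to 50.1% in LN and 32.6 to 77.4% in spleen. Pairs between groups differed by 59.0 to 87.7% for KO tumor and WT tumor, 40.4 to 72.8% for KO tumor and LN, 29.9 to 82.1% for KO tumor and spleen, 44.0 to 85.7% for WT tumor and LN, 38.2 to 86.1% for WT tumor and spleen, and 46.3 to 78.8% for LN and spleen. The range within each group overlapped the 29.9 to 87.7% spanned by all pairs between groups, although KO tumor pairs lay below every pair of KO tumor and WT tumor, and the pairs of LN libraries were the closest on average, with a median of 37.5%.

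The comparison of LN with spleen sets Tregs of 2 lymphoid sites of wild-type mice side by side. Trbv17, Trbv29 and Trbv13-3 were higher in LN than in spleen, and no segment was lower. These were 3 of the 29 segments that passed the filter of 1 FPKM in at least 3 libraries, against 0.499% of all 9616 genes called in this comparison. Nothing is read from this count or from the p-values of Trbv17 and Trbv29. Both segments reached 1 FPKM only in the LN libraries of the fit and so passed the filter through LN alone. Trbv17 stood at 24.5, 21.1, 76.9 and 21.3 FPKM in LN, against 0, 0, 0.194 and 0.466 FPKM in spleen. Every LN library lay far above every spleen library, where the highest value amounts to fewer than 3 reads (3 reads would be 0.581 to 0.703 FPKM, counting error only). The difference was 4.77 ± 0.56 on the log2(FPKM + 1) scale (SE, limma, Benjamini-Hochberg adjusted p = 0.00378). Trbv29 stood at 31.5, 41.5, 6.72 and 23.9 FPKM in LN, against 0.215, 0, 0 and 0 FPKM in spleen, a log2 difference of 4.44 ± 0.59 (limma adjusted p = 0.00559). The spleen value above 0 is worth a single read. Trbv13-3 stood at 62.9, 21.1, 25.8 and 82.5 FPKM in LN, against 0, 5.50, 0.213 and 1.79 FPKM in spleen, a log2 difference of 4.28 ± 0.84 (limma adjusted p = 0.0420). This call was lost in 10 of its 14 alternatives, with adjusted p of 0.0321 to 0.156 over all of them. Trbv31 stood at 58.4, 26.3, 73.6 and 181 FPKM in LN, against 0.454, 0, 0 and 44.6 FPKM in spleen. Spleen 4 overlapped the LN range, and the log2 difference of 4.59 ± 1.06 did not pass (limma adjusted p = 0.0871).

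**Figure D3:**
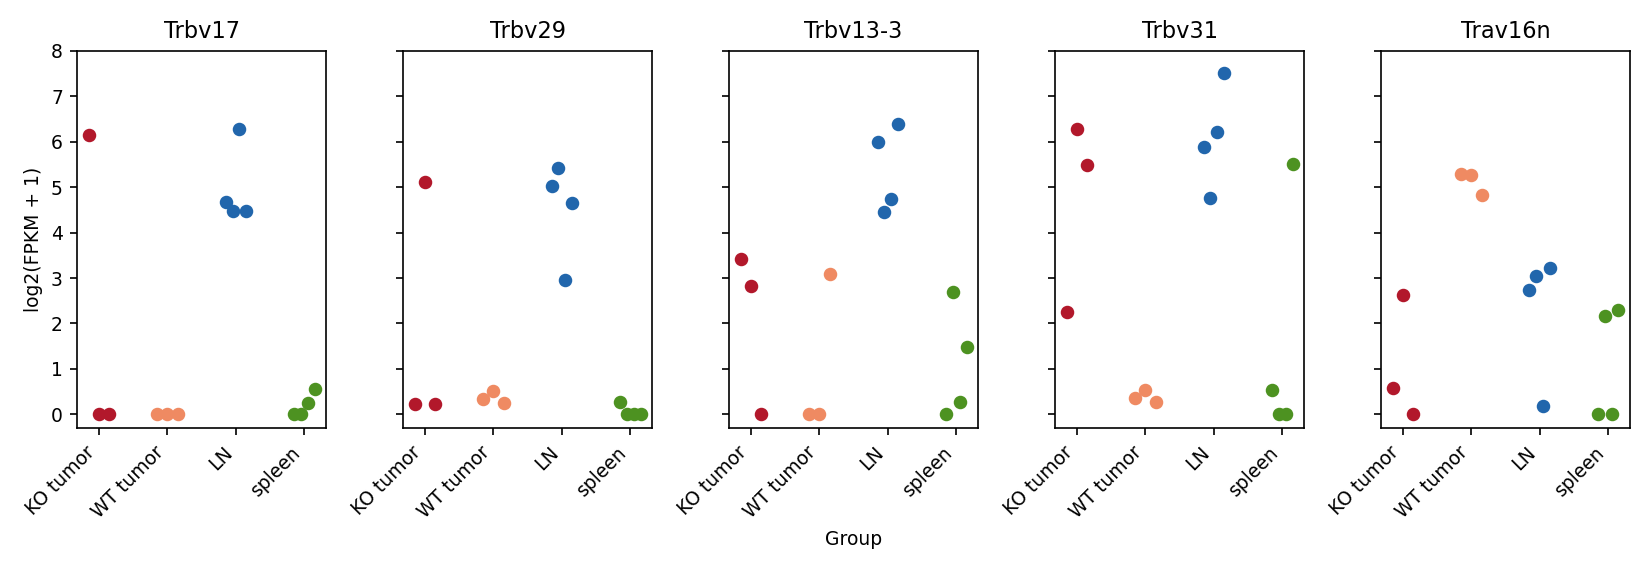
Levels of the 5 segments that passed the test in at least 1 comparison, as log2(FPKM + 1) (vertical axis) by group, each point a library. Trbv17 and Trbv29 are high in all 4 LN libraries and near 0 in WT tumor and spleen, with a single high KO tumor library each, and Trav16n is highest in the 3 WT tumors.

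Most TRBV segments leaned the same way between LN and spleen: the mean FPKM of 16 of the 19 was higher in LN, that of Trbv15 and Trbv30 was lower, and Trbv21 was listed at 0 in both. The summed TRBV level was 714 to 962 FPKM in LN and 253 to 463 FPKM in spleen, so a higher FPKM need not be a higher share. By mean share, Trbv2, Trbv3 and Trbv19 were lower in LN as well as Trbv15 and Trbv30, and the others but Trbv21 were higher. Over the 29 filtered segments of both loci the median log2 difference was 1.65, against 0.02 over all genes tested. Without the filter it was 1.21 over 42 segments and 0 over all genes. LN and spleen did not overlap for 7 of the 29 filtered segments, against 7.87% of all genes. LN was the higher in all 7, which held for 3.87% of all genes. The 7 were Trbv13-1, Trbv13-3, Trbv17, Trbv20, Trbv29, Trav13d-1 and Trav8n-2. Trbv17 and Trbv29 passed the filter through LN alone, and Trbv13-1, Trav13d-1 and Trav8n-2 would not have passed it without LN. Nothing is therefore read from this count. Transcripts of another cell type also differed between these groups. Of 10 macrophage or monocyte markers 5 were lower in LN (Apoe, C1qa, C1qb, Fcer1g and Tyrobp), with summed levels of 4.04 to 36.1 FPKM in LN and 271 to 711 FPKM in spleen. No marker of this list was at 0 throughout LN or spleen. Their part in the segments' levels was not tested, while the shares above are taken within a receptor locus.

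The comparison of WT tumor with LN asks how Tregs inside the melanoma differ from those of a lymphoid site. Trbv17, Trbv29, Trbv31 and Trbv13-3 were lower in WT tumors, 4 of the 29 segments, against 3.04% of all genes called, a count under the same limit of the filter. The p-values of Trbv17 and Trbv29 are under that limit too, and nothing is read from them. The LN libraries are the same as in the comparison with spleen, so the 2 comparisons are not independent. Trbv17 was listed at 0 in each WT tumor, where 3 reads would be 0.553 to 0.755 FPKM, against 21.1 to 76.9 FPKM in LN. The fitted difference, which depends on the pseudocount, was -4.97 ± 0.60 on the log2(FPKM + 1) scale (limma adjusted p = 0.000423). Trbv29 stood at 0.264, 0.422 and 0.197 FPKM in WT tumors, 1 or 2 reads each, against 6.72 to 41.5 FPKM in LN (log2 difference -4.14 ± 0.64, limma adjusted p = 0.00238). Trbv31 stood at 0.279, 0.446 and 0.208 FPKM in WT tumors, again 1 or 2 reads, against 26.3 to 181 FPKM in LN (log2 difference -5.71 ± 1.14, limma adjusted p = 0.0133). This call was lost with no filter on low values, with adjusted p of 0.000979 to 0.0672 over its 13 alternatives. Trbv17, Trbv29 and Trbv31 were near or at 0 in every WT tumor and the groups did not overlap. Trbv13-3 stood at 0, 0 and 7.55 FPKM in WT tumors, against 21.1 to 82.5 FPKM in LN (log2 difference -4.37 ± 0.90, limma adjusted p = 0.0166). Its call was lost in 5 of 13 alternatives, with adjusted p of 0.00625 to 0.0809.

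By mean FPKM, 17 of the 19 TRBV segments were lower in WT tumors than in LN, the exceptions being Trbv15 and Trbv21. The summed TRBV level was 183 to 600 FPKM in WT tumors and 714 to 962 FPKM in LN, so a lower FPKM need not be a lower share. By mean share, Trbv15 and Trbv21 were again higher in WT tumors, and so were Trbv1, Trbv3, Trbv19, Trbv20, Trbv23, Trbv26 and Trbv30. The other TRBV segments were lower. The median log2 difference over the 29 filtered segments was -1.90, against -0.12 over all genes tested. Without the filter it was -1.20 over 42 segments and 0 over all genes. Groups did not overlap for 8 of the 29, against 17.0% of all genes, with 1 higher in WT tumors (8.02% of all genes) and 7 lower (8.95% of all genes). Besides the 4 called, Trbv14, Trav8n-2 and Trav14-1 were lower in every WT tumor and Trav16n was higher. Trbv17 and Trbv29 passed the filter through LN alone, and Trbv14, Trbv31, Trav8n-2 and Trav14-1 would not have passed it without LN. Nothing is therefore read from the count of segments that did not overlap. Trbv14 was 0, 0 and 1.32 FPKM in WT tumors and 32.1, 5.10, 112 and 49.2 FPKM in LN, a log2 difference of -4.63 ± 1.31 that did not pass (limma adjusted p = 0.0796). Of the 7 genes for receptor constant regions and CD3 chains, Cd3e was higher in WT tumors (log2 difference 1.40 ± 0.29, limma adjusted p = 0.0157) and Trbc2 lower (-0.56 ± 0.13, adjusted p = 0.0315). None of the 7 passed in the comparisons of WT tumor with spleen, LN with spleen and KO with WT tumor by limma, where 2, 3 and 1 of them had an unadjusted p under 0.05.

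Between WT tumor and spleen a single segment passed, Trav16n, against 1.90% of all genes called. It stood at 38.3, 37.5 and 27.5 FPKM in WT tumors, against 0, 3.45, 0 and 3.95 FPKM in spleen (log2 difference 4.02 ± 0.85, limma adjusted p = 0.0258). It was the only segment of the 29 whose groups did not overlap, against 11.5% of all genes (5.73% higher and 5.80% lower in WT tumors). LN held 5.72, 7.27, 0.132 and 8.34 FPKM of it and KO tumors 0.506, 5.22 and 0 FPKM, all below each WT tumor. The call was lost in 8 of 13 alternatives, among them the fits without WT tumor 2, 3 or 4 and without spleen 1 or 3, with adjusted p of 0.0264 to 0.0937 over all of them. By mean FPKM 10 of the 19 TRBV segments were higher and 9 lower in WT tumors than in spleen. Of the 10 macrophage or monocyte markers 8 were tested, and 4 were called lower in WT tumors (Apoe, C1qa, C1qb and Tyrobp). All 10 summed to 1.18 to 107 FPKM in WT tumors and 271 to 711 FPKM in spleen. Their part in the segment levels was not tested.

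Trav16n has near-identical copies, since part of the mouse TRAV locus is triplicated, and reads could be divided among them in the counting. The last 290 coding bases of the 3 measured copies are shown, with capitals at the 6 positions where they differ, because reads that miss those positions cannot tell the copies apart.
Trav16n: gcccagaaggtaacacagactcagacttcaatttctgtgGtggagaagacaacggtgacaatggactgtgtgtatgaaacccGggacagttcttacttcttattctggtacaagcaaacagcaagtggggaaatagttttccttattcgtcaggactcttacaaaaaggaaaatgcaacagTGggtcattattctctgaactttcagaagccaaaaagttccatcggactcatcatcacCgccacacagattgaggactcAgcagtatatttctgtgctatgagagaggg
Trav16: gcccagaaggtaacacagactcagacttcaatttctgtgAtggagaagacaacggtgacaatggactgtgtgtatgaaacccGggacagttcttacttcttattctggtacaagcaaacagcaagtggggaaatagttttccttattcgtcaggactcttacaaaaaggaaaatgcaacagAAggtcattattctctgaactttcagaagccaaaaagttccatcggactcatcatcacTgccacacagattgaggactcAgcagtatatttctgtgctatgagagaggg
Trav16d-dv11: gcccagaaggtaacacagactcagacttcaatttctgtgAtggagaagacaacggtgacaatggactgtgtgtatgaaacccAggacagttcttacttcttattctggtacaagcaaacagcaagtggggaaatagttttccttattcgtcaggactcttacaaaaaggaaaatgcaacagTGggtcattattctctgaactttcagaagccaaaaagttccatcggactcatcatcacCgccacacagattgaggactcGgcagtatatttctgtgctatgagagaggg
They lie on the plus strand of GRCm38 at chr14:53351332-53351621, chr14:53743416-53743705 and chr14:53047532-53047821, in the order of the lines. Trav16n differs from Trav16 at 4 of the 290 positions and from Trav16d-dv11 at 3, and the longest run shared by all 3 is 98 bases.

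In WT tumors the deposited levels were divided in nearly the same proportion in every library. Trav16n held 79.1, 79.1 and 78.3% of the 3 copies' summed FPKM in WT tumors 2 to 4, Trav16 13.8, 13.8 and 12.7%, and Trav16d-dv11 7.10, 7.11 and 8.95%. KO tumor 2, the only KO tumor with more than 1 FPKM of the copies, had 22.5% Trav16n, 9.08% Trav16 and 68.4% Trav16d-dv11. In LN 1, 2 and 4 Trav16n held 18.7, 19.7 and 42.1%, and Trav16, at 61.7, 44.97 and 44.6%, was ahead of it in each. In spleen 2 Trav16n held 62.8% and in spleen 4 17.6%. Summed over the copies, the level was 0.506, 23.2 and 0 FPKM in KO tumors, 48.4, 47.4 and 35.1 FPKM in WT tumors, 30.6, 36.9, 0.132 and 19.8 FPKM in LN, and 0, 5.50, 0.173 and 22.4 FPKM in spleen. Once summed, WT tumors still lay above all KO tumor and spleen libraries but no longer above LN, where LN 2 exceeded WT tumor 4. As a share of the TRAV signal the sum was 71.6, 67.4 and 33.3% in WT tumors and 0, 5.06, 0.307 and 73.9% in spleen, so spleen 4 exceeded all 3 WT tumors. The comparison of Trav16n with spleen therefore rests on single-copy levels that are uncertain.

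**Figure D4:**
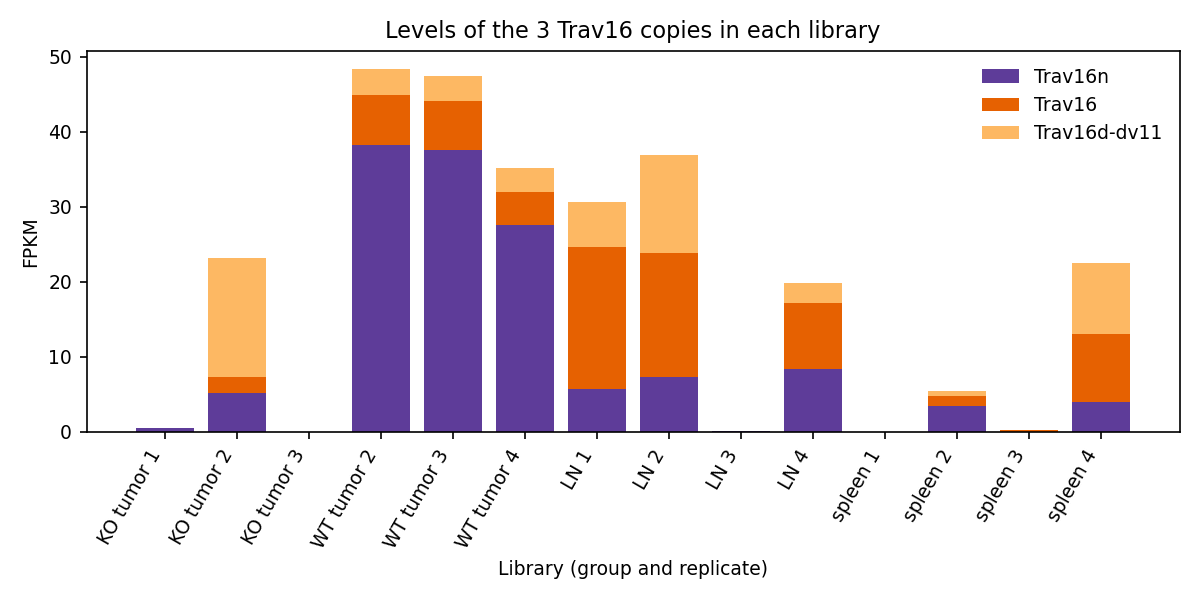
FPKM (vertical axis) of the 3 Trav16 copies, stacked, in each of the 14 libraries. Trav16n makes up 78.3 to 79.1% of the bar in the WT tumors, while Trav16 is ahead of Trav16n in LN 1, 2 and 4 and in spleen 4.

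KO and WT tumors were compared to see whether loss of Cd36 in Tregs goes with another mix of receptors. No segment passed the threshold in limma (0 of 20 filtered, against 0.280% of all 8210 genes), and 6 of the 20 had an unadjusted p under 0.05, against 709 of all genes. Groups did not overlap for 5 of the 20, against 14.5% of all genes. Of these, 3 were higher in KO tumors (Trbv16, Trbv31 and Trav3-1), against 7.54% of all genes, and 2 were lower (Trav16n and Trav16), against 6.93%. Trbv31 passed the filter through KO tumors alone. Trav3-1 would not have passed it without KO tumors, nor Trav16n and Trav16 without WT tumors. Nothing is therefore read from these counts. Trbv16 stood at 116, 125 and 72.9 FPKM in KO tumors, against 18.5, 8.41 and 55.8 FPKM in WT tumors (log2 difference 2.23 ± 0.64, limma adjusted p = 0.315). Its share of the TRBV signal was 42.4, 23.8 and 35.1% in KO tumors and 10.1, 2.52 and 9.30% in WT tumors, and no LN or spleen library exceeded 14.8%. Every KO tumor share was thus above every other library's share, a description that was not tested. Trbv31 stood at 3.75, 76.8 and 44.1 FPKM in KO tumors, against 0.279, 0.446 and 0.208 FPKM in WT tumors (log2 difference 4.29 ± 1.04, limma adjusted p = 0.228). Trav16n, at 0.506, 5.22 and 0 FPKM in KO tumors and 27.5 to 38.3 FPKM in WT tumors, had a log2 difference of -4.06 ± 0.80 (limma adjusted p = 0.115). Trav3-1 stood at 6.03, 6.13 and 5.45 FPKM in KO tumors and 0.726, 0 and 4.32 FPKM in WT tumors (log2 difference 1.71 ± 0.81, limma adjusted p = 0.611), the KO tumor values lying closer together than those of most segments. Macrophage markers moved too: C1qb and Tyrobp, 2 of 10 markers, were higher in KO tumors, with sums of 306 to 415 FPKM in KO tumors and 1.18 to 107 FPKM in WT tumors, where 2 of the 10 markers were at 0 throughout. The part of macrophage RNA in the segment levels was not tested. By mean FPKM, 9 of the 19 TRBV segments were higher and 10 lower in KO tumors.

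Trbv17 and Trbv29 differed within the KO group. Trbv17, near or at 0 in WT tumors and spleen, was 69.6 FPKM in KO tumor 1, 25.5% of its TRBV signal, and was listed at 0 in KO tumors 2 and 3. Trbv29 was 33.4 FPKM in KO tumor 2 and 0.169 and 0.165 FPKM, a single read each, in KO tumors 1 and 3. Both segments therefore occurred in 1 tumor library of 6 at levels as high as in LN.

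TRAV segments drew fewer reads than TRBV segments in every library, and their mean effective number was lower in each group. The effective number of TRAV segments was 5.56, 7.30 and 4.28 in KO tumors, 3.95, 3.29 and 5.06 in WT tumors, 8.83, 13.9, 4.72 and 6.59 in LN and 2.88, 4.73, 4.05 and 5.39 in spleen. LN 2 was the most even and LN 3 lay among the tumor and spleen libraries, so no group stood apart as LN did for TRBV. Means were 5.71 ± 1.52 in KO tumors (SD, n = 3), 4.10 ± 0.891 in WT tumors (n = 3), 8.51 ± 3.97 in LN (n = 4) and 4.26 ± 1.07 in spleen (n = 4). Of the 27 TRAV segments 8, 13 and 4 reached 1 FPKM in KO tumors, 6, 4 and 7 in WT tumors, 12, 16, 6 and 12 in LN and 5, 9, 5 and 6 in spleen. Trav2, Trav4-2 and Trav18 were listed at 0 in all 14 libraries, and no TRAV segment was above 0 in all. The TRAV segments together drew an estimated 235 to 1255 reads in KO tumors, 288 to 577 in WT tumors, 816 to 1303 in LN and 133 to 516 in spleen. Of the 27 TRAV segments 15 have an annotated segment with at least 95% identity of coding sequence, and for 9 of these 15 it is among the segments measured, so levels of single TRAV copies are less certain than those of TRBV segments.

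The leading TRAV segment also changed from library to library. Trav21-dv12, a segment that the delta chain can also use, held 42.5% of the TRAV signal in KO tumor 1 and 38.5% in KO tumor 2, and Trav1 held 40.7% in KO tumor 3. Trav16n led in WT tumor 2 with 56.7% and in WT tumor 3 with 53.3%, and Trav14n-3 in WT tumor 4 with 38.5%, ahead of Trav16n at 26.1%. In LN the leaders were Trav14n-3 with 28.5% in LN 1, Trav14-1 with 17.1% in LN 2 and 43.0% in LN 4, and Trav13-2 with 34.4% in LN 3. In spleen they were Trav14n-3 with 65.7% in spleen 1, Trav14-1 with 56.7% in spleen 2, Trav6n-6 with 41.8% in spleen 3 and Trav16d-dv11 with 30.9% in spleen 4. In LN 3 Trav6n-6 was close behind Trav13-2, also at 34.4%, and in spleen 3 Trav19 held 37.9%. Trav19 was otherwise above 0 only in LN 4, at 0.122 FPKM.

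**Figure D5:**
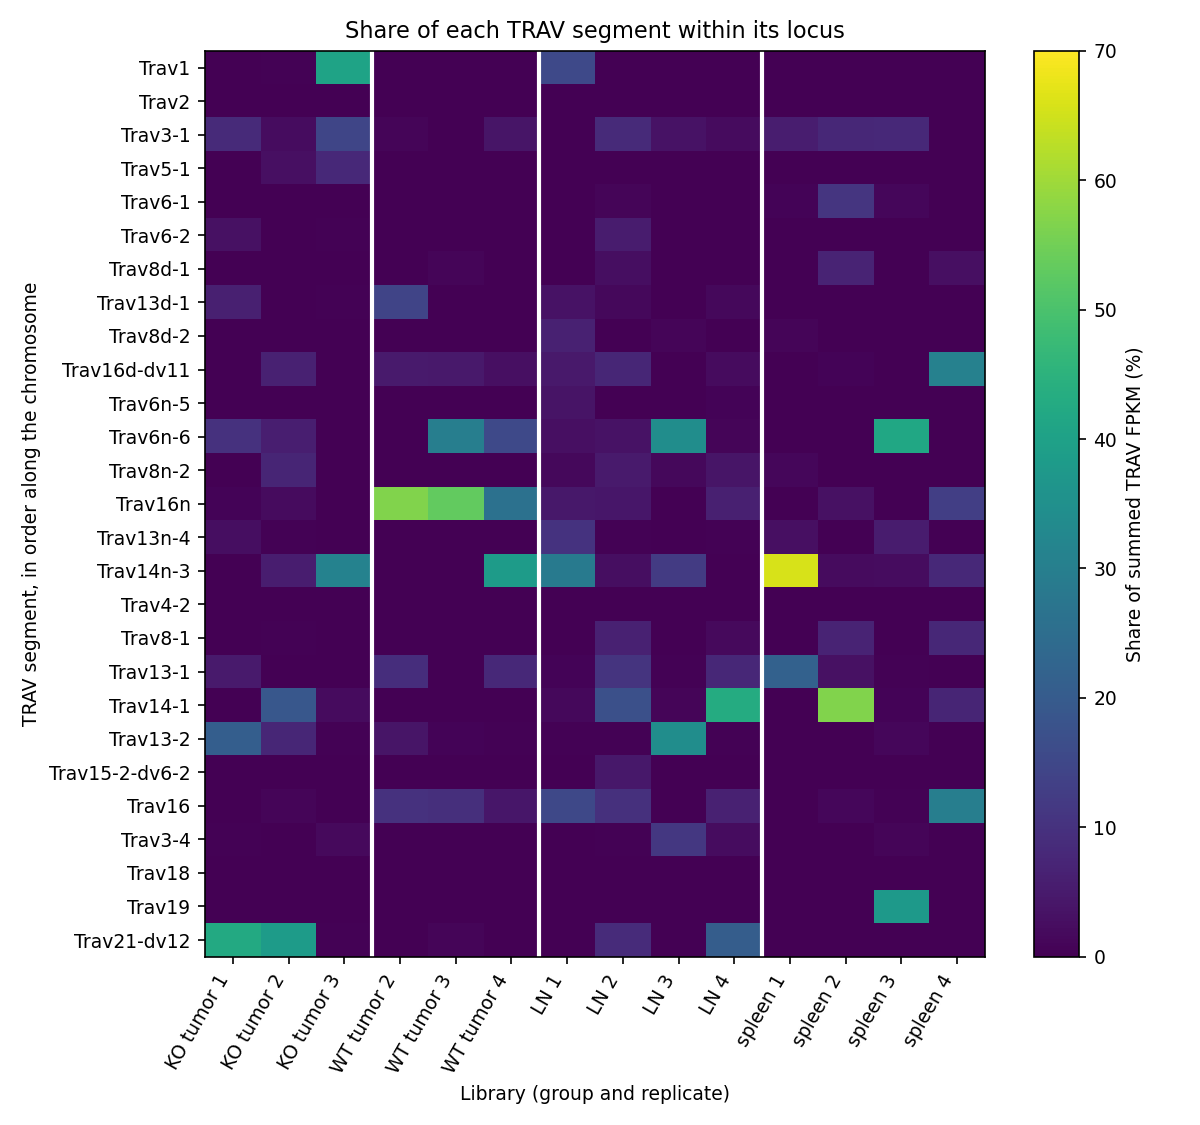
Share of each of 27 TRAV segments (rows, in order along the chromosome) in the summed TRAV FPKM of each library (columns), in percent by colour. In most columns 1 or 2 segments are bright, and Trav16n is bright in the 3 WT tumors, at 26.1 to 56.7%.

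Trav14-1 shows the spread at this locus. Its level was 0, 47.3 and 0.730 FPKM in KO tumors, 0, 0 and 0.174 FPKM in WT tumors, 2.0, 29.2, 0.932 and 58.9 FPKM in LN and 0, 61.5, 0.363 and 2.18 FPKM in spleen. Each WT tumor lay below each LN library, but the log2 difference of -3.26 ± 1.41 did not pass (limma adjusted p = 0.276). Trav21-dv12 was 30.6, 95.9 and 0.162 FPKM in KO tumors, 0, 0.620 and 0 FPKM in WT tumors, 0, 14.8, 0 and 28.3 FPKM in LN and 0.210, 0, 0 and 0 FPKM in spleen. It was high in 4 libraries of the KO tumor and LN groups and below 1 FPKM in the other 10. Trav8n-2 was 0, 17.9 and 0 FPKM in KO tumors, listed at 0 in each WT tumor, 1.96, 8.83, 1.48 and 5.48 FPKM in LN, and 1.11, 0, 0 and 0 FPKM in spleen. LN lay above spleen and WT tumor throughout, at levels where the differences did not pass (LN against spleen 1.95 ± 0.53, limma adjusted p = 0.163, WT tumor against LN -2.22 ± 0.57, limma adjusted p = 0.0556). Trav13d-1 was 4.36, 0 and 0.147 FPKM in KO tumors, 9.65, 0 and 0 FPKM in WT tumors, 4.38, 2.49, 0.235 and 1.93 FPKM in LN and 0 in each spleen library, with a log2 difference of LN against spleen of 1.52 ± 0.72 (limma adjusted p = 0.492).

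Within groups, TRAV shares were closest among WT tumors. The share not in common was 44.3 to 89.4% among KO tumors, 31.8 to 57.2% among WT tumors, 42.4 to 91.4% among LN and 75.9 to 96.7% among spleen libraries. Between groups it was 64.04 to 99.2% for KO tumor and WT tumor, 47.1 to 93.0% for KO tumor and LN, 62.7 to 99.3% for KO tumor and spleen, 55.5 to 94.4% for WT tumor and LN, 49.3 to 99.8% for WT tumor and spleen and 44.2 to 93.7% for LN and spleen. The copies Trav16n, Trav16 and Trav16d-dv11 were the 3 TRAV segments at 1 FPKM or more in every WT tumor.

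Segments of T cells with fixed receptors and markers of other T cells were looked at as well. Trav1, the V segment of MAIT cells (innate-like T cells that recognise vitamin B metabolites), was 0, 1.34 and 15.2 FPKM in KO tumors, 0 in each WT tumor, 19.1, 0, 0.141 and 0 FPKM in LN and 0 in each spleen library. Its level rested on KO tumor 3 and LN 1. The segments of invariant NKT cells, Trav11 and Trav11d, were not analysed here. The gamma constant gene Tcrg-C4, a marker of gamma-delta T cells that can also be transcribed in alpha-beta T cells, was highest in KO tumor 2 (36.9 FPKM), spleen 3 (33.0 FPKM) and LN 2 (21.7 FPKM). Other genes of the gamma-delta list did not follow it. Tcrg-C2 was at 0 throughout KO tumors, WT tumors and LN, and Sox13 throughout KO tumors, LN and spleen. The measured genes of the list summed to 0.0591 to 37.0 FPKM in KO tumors and 0.0597 to 3.02 FPKM in WT tumors. In LN the sum was 0.0472 to 21.8 FPKM and in spleen 0 to 33.0 FPKM. Trdc, also on the list, was not analysed here. Rag1 and Rag2, which cut the DNA at rearrangement, were listed at 0 in all 14 libraries, and Dntt, which adds bases at the joints, was above 0 only in LN 2 (0.487 FPKM) and spleen 2 (0.535 FPKM).

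The other marker lists, summed in FPKM per library, gave these ranges. The 6 Treg markers summed to 482 to 566 FPKM in KO tumors, 443 to 549 in WT tumors, 299 to 337 in LN and 312 to 471 in spleen, and none was at 0 throughout a group. Of these, Ctla4 was higher in WT tumors than in spleen (limma adjusted p = 0.0281) and Cd3e higher in WT tumors than in LN (limma adjusted p = 0.0157). Foxp3 itself leaned lower in WT tumors without a call. Its log2 difference was -0.99 ± 0.55 against spleen (limma adjusted p = 0.448) and -1.42 ± 0.55 against LN (limma adjusted p = 0.223). Ikzf2 and Cd4 leaned higher in both comparisons and Il2ra higher against spleen only, also without a call. The 6 CD8 T or NK cell markers summed to 945 to 1931 FPKM in KO tumors, 616 to 1038 in WT tumors, 164 to 334 in LN and 190 to 485 in spleen, and of these Nkg7 was higher in WT tumors than in LN and than in spleen (limma, adjusted over all genes). Against spleen, Cd8a leaned lower (log2 difference -1.50 ± 0.67, limma adjusted p = 0.330), Cd8b1 higher (1.32 ± 1.03), and Prf1 was near level (0.02 ± 0.97). Against LN, Cd8a, Cd8b1 and Prf1 leaned higher, and none was called in either comparison. Ncr1 was at 0 throughout KO tumors, WT tumors and LN, and Klrk1 throughout LN. The 5 conventional helper T cell markers summed to 219 to 377 FPKM in KO tumors, 292 to 342 in WT tumors, 68.8 to 149.99 in LN and 69.6 to 117 in spleen, and Ifng was higher in WT tumors than in spleen (limma adjusted p = 0.0351). The 5 erythroid markers summed to 63.3 to 16427 FPKM in KO tumors, 225 to 11899 in WT tumors, 79.0 to 1190.0 in LN and 2969 to 7079 in spleen. Hba-a2 was higher in WT tumors than in LN (limma adjusted p = 0.0431) and lower in LN than in spleen (limma adjusted p = 0.0281). The part of these transcripts in the V segment levels was not tested.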

How the data were processed

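RNA was extracted with a low-input protocol and libraries were made with Smart-Seq2, per the labels' protocols. The deposited values are FPKM (fragments per kilobase and M mapped fragments, M being mega), as deposited by the authors in 1 table per library of 22255 genes. Cufflinks 2.2.1, Bowtie2 2.2.9, TopHat2 2.1.1, Cuffdiff, DESeq2 and Trimmomatic and the build mm10 (GRCm38) are named, with no role, per the submitters' processing notes. How reads shared by near-identical segments were divided, and whether strand was used, is not given in the sources used here. FPKM are relative to the library's total.

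Shares are a segment's FPKM over the summed FPKM of its locus in the library. Differences were tested with robust limma-trend (limma 3.58.1, R 4.3.3) on log2(FPKM + 1), which understates changes of low genes. A gene was tested where at least 3 libraries of the fit reached 1 FPKM. One fit held the 11 LN, spleen and WT tumor libraries and the other the 6 tumor libraries. Benjamini-Hochberg adjustment ran over all genes tested, with 0.05 as threshold. Of the 46 segments 29 and 20 passed the filter in these fits. A segment that passed through the group where it is high was bound to differ. Counts over these segments, and the p-value of such a segment, are therefore descriptions. The members, the gene lists and the rule for named segments were chosen with earlier results of these data known. That rule took, per locus, the 6 highest mean shares, the leader of each library, every segment past the threshold, the 2 largest non-overlapping differences in share per comparison, and the segments of NKT and MAIT cells. Trav3-1, Trav19, Trbv13-1, Trbv21, Trbv26 and Trbv30 were named after their values were seen.

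Reads per library were estimated from the steps between low FPKM values multiplied by length in genes with a single transcript of at least 800 bases, where 93.9 to 97.4% of values up to 10 reads were whole within 0.1. For Trbc1 and Trbc2 or Trac the summed V level was set against the constant level. Marker lists (Treg, CD8 T or NK, gamma-delta T, conventional helper T, macrophage or monocyte, erythroid, constant and CD3 chains, rearrangement genes) were summed in FPKM, and 1 further list is not reported here. Germline sequences and coordinates came from GENCODE M21 and the pseudogene label from RefSeq (GRCm38.p6), with Biopython 1.88 for alignment. Python 3.11.15, numpy 2.4.6, pandas 2.3.3 and matplotlib 3.10.9 did the rest. Alternatives were the pseudocount, the filter, scaling to protein-coding genes, non-robust fits, fits of 2 groups, a replicate block, each replicate left out, and shares of reads in place of FPKM. For shares, segments of the same number, such as Trbv13-1, Trbv13-2 and Trbv13-3, were also summed.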

Additional observations from a re-analysis of the deposited data

Results flagged for a closer look

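In all, 48 sets of 4 libraries (LN or spleen) were tested, holding the shares of the segments named by the rule and the effective numbers. Of these sets 16, all of them shares, had a library far from the others. Chance gives about 1 in 20 for values without ties. That rate does not hold for shares with many values at 0, and in 5 of the 16 the other three libraries were at 0, so the count is not set against chance. In LN these were Trav1 in LN 1 (15.5% of the TRAV signal), and Trav6n-6 (34.4%) and Trav13-2 (34.4%) in LN 3. In spleen 1 they were Trav14n-3 (65.7%), and, at shares worth a few reads, Trav8n-2 (1.28%), Trav21-dv12 (0.242%) and Trbv29 (0.0571%). Spleen 2 stood apart for Trav14-1 (56.7%), and spleen 3 for Trav6n-6 (41.8%), Trav13-2 (1.32%) and Trbv14 (10.5%). Spleen 4 stood apart for Trav16 (30.03%), Trav16d-dv11 (30.9%), Trbv13-2 (26.5%) and Trbv31 (17.2%) on the high side and for Trbv20 (0%) on the low side. No LN library was far from the others in the share of a TRBV segment named by the rule. Segments outside the rule were not tested in this way.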

How the results depend on the processing

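The effective number of segments moved by less than 1 SD under each alternative tried (26 values per locus). Leaving out a replicate cannot move a group mean by 1 SD, so for those values this outcome was fixed in advance. Without single replicates the TRBV means were 5.92 to 6.71 in KO tumors, 4.41 to 5.97 in WT tumors, 11.7 to 12.5 in LN and 4.21 to 6.18 in spleen. Of 242 log2 differences of named segments recomputed, none changed sign, 24 lost their call and 4 gained one. Trbv17 and Trbv29 passed in each alternative of both comparisons with LN. As both reached 1 FPKM only in the LN libraries of the main fit, this is not read as added support. For WT tumor against spleen the count of segments called was 0 with a pseudocount of 0.1, with no filter and with a replicate block, and 0 to 1 without single replicates. For WT tumor against LN it was 2 with no filter and 3 to 6 without single replicates, and for LN against spleen 2 to 3 without single replicates and 4, with Trbv13-1 added, in the fit of these groups alone. KO against WT tumor stayed at 0 in each alternative run, while the fit of these 2 groups alone is the one reported. Replicate numbers were not taken as pairing, since same-numbered libraries had correlations of -0.028 to -0.00069 over 10147 genes. Over the 46 segments LN and spleen libraries of the same number had 0.243, 0.150, 0.427 and 0.0932, and 5 of these 8 libraries correlated best with their own number. Each pair is counted from both sides, so the 8 are not independent and whether these libraries are paired cannot be told. The replicate block called 0, 4, 2 and 0 segments for WT tumor over spleen, WT tumor over LN, LN over spleen and KO tumor over WT tumor, an order kept below. Over all genes, 183, 292, 48 and 23 were called, against 112, 219, 16 and 0 with no filter and 89, 186, 20 and 6 with the block. The fit of WT tumor and spleen alone called 87. Without single replicates the ranges were 82 to 173, 183 to 268, 13 to 35 and 9 to 15. Of 568 mean shares recomputed 25 moved by over 1 SD, nearly all with segments of the same number summed, not all of which are near-identical. The 568 include means with a replicate left out, which could not move that far. Differences of a few reads were not detectable at this depth.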
